A study of Pinus pinaster with 6 samples.

Results

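The transcripts described here are those that stood highest in a single water library of a maritime pine root experiment, control library C3. They were chosen from the deposited levels. A transcript had to reach at least 10 CPM in C3 (CPM is the number of reads of a transcript scaled to a common library size) and at least 1.5 times the larger of its levels in the other water libraries, C1 and C2. The 597 transcripts that met these conditions were ranked by the level in C3 divided by the highest level in the other 5 libraries plus 1 CPM, and the first 100 were kept, of 46658 transcripts in the table. A further 16 transcripts, forms of pyruvate decarboxylase, alcohol dehydrogenase, ethylene response factors and auxin-repressed protein, were left out beforehand, of which 4 would have ranked among the 100. Because the selection compared C3 with every other library, each contrast that holds C3 is given below as a description, without a test.

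The RNA came from whole roots of 1-month-old Pinus pinaster seedlings of the Sierra Segura y Alcaraz provenance, raised in vermiculite. Both groups first received 80 mL of distilled water and 3 days of acclimation. Control seedlings (C1, C2 and C3) were then irrigated with 80 mL of water and treated seedlings (N1, N2 and N3) with 80 mL of 3 mM NH4Cl, and roots were frozen 24 h later. Poly(A) RNA was read directly on nanopores, to ask how ammonium supply changes the root transcriptome. A whole root mixes cell types, and in such bulk RNA fewer cells of a type and less RNA per cell cannot be told apart. The labels state that the experiment was repeated independently but do not tie a library number to a repeat, so p-values measure the spread between these libraries.

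Roots in wet substrate can run short of oxygen, and plant cells then shift from respiration to fermentation, in which pyruvate decarboxylase and alcohol dehydrogenase turn pyruvate into ethanol and recover NAD+. In Arabidopsis, the transcription factors that switch such genes on belong to group VII of the ethylene response factors (ERFs). With oxygen present, plant cysteine oxidases mark these factors for breakdown, and when oxygen falls the factors persist.

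The libraries held from 1270378 reads assigned to transcripts (C1) to 5416076 (N3), recovered from the CPM values, and C3 held 4513186. In C1, the shallowest library, 1 read was worth 0.767 CPM, against 0.221 CPM in C3 and 0.325 CPM in N1. Correlations of log2(CPM + 1) between C3 and the other libraries were 0.933 to 0.963 over all transcripts, within the span of 0.920 to 0.976 over all pairs. Summed markers of other tissue in C3 lay within the range of the other libraries. The summed level of 10 annotated green tissue transcripts was 586 CPM in C3 and 486 to 775 CPM elsewhere, and none of the 10 was highest in C3. The 40 annotated transcripts used as markers of dividing cells, mainly histones, summed to 2013 CPM in C3 and 1826 to 2029 CPM elsewhere, and 3 laccase transcripts of secondary xylem to 8.17 CPM in C3 and 6.49 to 12.3 CPM elsewhere. Aquaporins and other transport proteins of the root (17 transcripts) were detected in all libraries, with 6728 CPM in C3 and 7609 to 8148 CPM elsewhere, so this sum was lowest in C3.

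Peaks of this kind were unequally spread over the libraries. When every library was held to the same boundary (at least 10 CPM, and a ratio to the highest other library plus 1 CPM of at least that of the last transcript kept), 104 transcripts peaked in C3, 36 in N1, 2 in C1 and 0 in each of C2, N2 and N3. With the ratio raised to 2, C3 had 80, N1 had 28 and C1 had 1. C3 was therefore not the only library with transcripts of its own, but it had the most by either boundary.

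**Figure D1:**
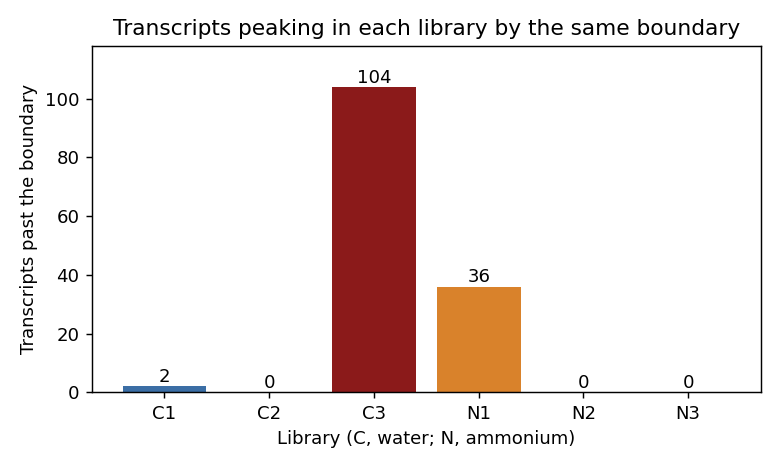
Number of transcripts (vertical axis) whose level in 1 library (horizontal axis) passed the same boundary against the other 5 libraries. C3 has 104 (the 100 described and 4 of those left out beforehand), N1 has 36, C1 has 2 and the other libraries have 0.

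In C3 the 100 transcripts ranged from 10.2 to 4288 CPM with a median of 22.3 CPM, and 77 of them lay under 50 CPM. The number of reads behind these levels ran from 46 to 19417. C3 exceeded the highest other library by 1.90-fold to 5.67-fold, with a median of 2.55-fold. As a median over the transcripts, C1 and C2 had 28.7% and 33.0% of the level in C3, and N1, N2 and N3 had 19.0%, 24.0% and 26.5%. Their summed level was 10341 CPM in C3 and 3024 to 4322 CPM elsewhere, and without the most abundant transcript, pp_134771, it was 6053 CPM in C3 and 1858 to 2538 CPM elsewhere.

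**Figure D2:**
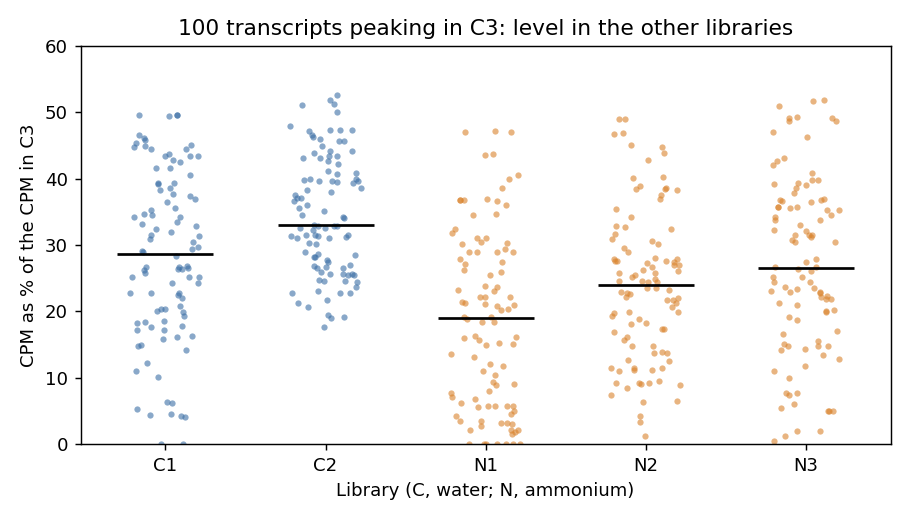
CPM of each of the 100 transcripts in the other 5 libraries, as a percentage of its CPM in C3 (points, blue for water and orange for ammonium), with the median of each library as a line. The medians run from 19.0% in N1 to 33.0% in C2. The selection fixed that the points lie low, not their order among the 5 libraries.

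The ranking ended without a gap. Its ratio was 4.03 at rank 1, 3.18 at rank 10, 2.29 at rank 50 and 1.89 at rank 100, while the next 5 transcripts had ratios of 1.89 to 1.86. The last 5 inside were 2 alcohol dehydrogenase forms (pp_203819 and pp_203827), a Gasa5-like form (pp_83985), a late embryogenesis abundant protein (pp_74573) and the unnamed pp_203824. Just outside stood pp_214339, pp_149844, pp_142379, pp_142378 and pp_234978, with 19.2 to 334 CPM in C3 and no name.

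Many of the 100 are not separate genes. Grouped by identifiers that lie within 20 of each other, they formed 50 runs, of which 23 held a single transcript and the largest held 5, and 6 transcripts had values identical to those of another. Reads of near-identical forms may have been shared out by the alignment, so forms of a run are not independent measurements. The study's annotation, as far as it was used here, gave an informative description or an Arabidopsis match to 38 of the 100, which stood for 25 unigenes or single forms, and left 62 without a name.

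A list of Arabidopsis low-oxygen genes, which holds oxygen-sensing enzymes beside genes of fermentation, supplied 10 of the named transcripts. They included 4 forms of a 2-aminoethanethiol dioxygenase, pp_78902 to pp_78905, all of the same unigene. These forms match AT1G18490 and AT2G42670, which belong to the plant cysteine oxidases, the enzymes that sense oxygen. The first of them, pp_78902, had 17.4 CPM in C3 against 3.84 and 4.30 CPM in C1 and C2 and 4.87, 1.92 and 2.50 CPM in N1 to N3. The highest of the other 5 was thus an ammonium library. The other 3 forms had 16.8 CPM in C3 and nearly the same values elsewhere.

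Alcohol dehydrogenase, the last enzyme of ethanol fermentation, was present with 3 annotated forms. The most abundant, pp_203819, had 39.9, 56.7 and 109 CPM in C1 to C3 and 23.1, 29.2 and 37.4 CPM in N1 to N3. All 3 ammonium values lay below both other water values, the closest pair being 37.4 and 39.9 CPM. A form with a neighbouring identifier, pp_203827, had 87.0 CPM in C3 and 31.8 to 44.9 CPM in the other 5, with the ammonium and water libraries overlapping. The unnamed pp_203824 lies between them in identifier and had 85.0 CPM in C3 and 32.8 to 44.0 CPM elsewhere. In the form of another unigene, pp_181247, the level was 19.0 CPM in C3 and 4.48 to 9.001 CPM elsewhere, while its annotated sister forms outside the 100, pp_95700 and pp_181255, had ratios of 0.489 and 1.42.

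A transcription factor with a LOB domain, pp_151417, was described as LOB domain-containing protein 37, but its Arabidopsis match was AT1G67100 (LBD40). Its place in the low-oxygen list rests on that match. It had water levels of 9.97, 10.02 and 32.2 CPM (C1 to C3) and ammonium levels of 4.87, 6.40 and 9.81 CPM (N1 to N3). C1 and C2 nearly coincided, and N3 came close to them. Its neighbour pp_151416, without a name, had 16.6 CPM in C3 and 1.95 to 7.67 CPM elsewhere. B12D proteins, small proteins that in rice have been placed in mitochondria, gave 3 transcripts, of which the pair that matches AT3G29970 counts among the low-oxygen genes of Arabidopsis. Of that pair, pp_56002 had 37.3 CPM in C3, 6.90 and 15.3 CPM in C1 and C2, and 7.14, 5.12 and 8.74 CPM in N1 to N3. Here C1 lay among the ammonium libraries, and C2 stood between them and C3. The form pp_56003 had the same order of C1, C2 and C3, at 25.0 CPM in C3, and the third transcript, pp_56004 (AT3G48140), had 15.2 CPM in C3 and 0.649 to 3.89 CPM elsewhere.

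The ethylene response factor among the 100, pp_151807, matches AT5G47220 (ERF2), which is not of group VII. It had 3.84, 3.89 and 10.2 CPM in C1 to C3 and 0.325, 1.28 and 3.21 CPM in N1 to N3, from 46 reads in C3, the fewest of all 100.

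Early nodulin-93, a family of small proteins first described in legume root nodules, gave 2 transcripts of different unigenes. The first, pp_88113, had water levels of 3.07, 5.52 and 20.8 CPM (C1 to C3) and ammonium levels of 0.649, 1.92 and 1.25 CPM (N1 to N3). Each of its water values was above every ammonium value. The second, pp_52786, had 17.7 CPM in C3, 0.767 and 6.96 CPM in C1 and C2, and 0.325, 0.213 and 0.891 CPM in N1 to N3. Its level in C1 rested on 1 read and lay among the ammonium values. Of the 9 annotated early nodulin-93 transcripts of the table, 9 were highest in C3, with ratios of 0.952 to 3.18. By comparison, 22.3% of all annotated transcripts were highest in C3. In 7 of the 9, all ammonium values also lay below C1 and C2 (29.2% of the annotated transcripts). The annotation covers in large part transcripts with small p-values in the study's own comparison, so these shares are not independent evidence.

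**Figure D3:**
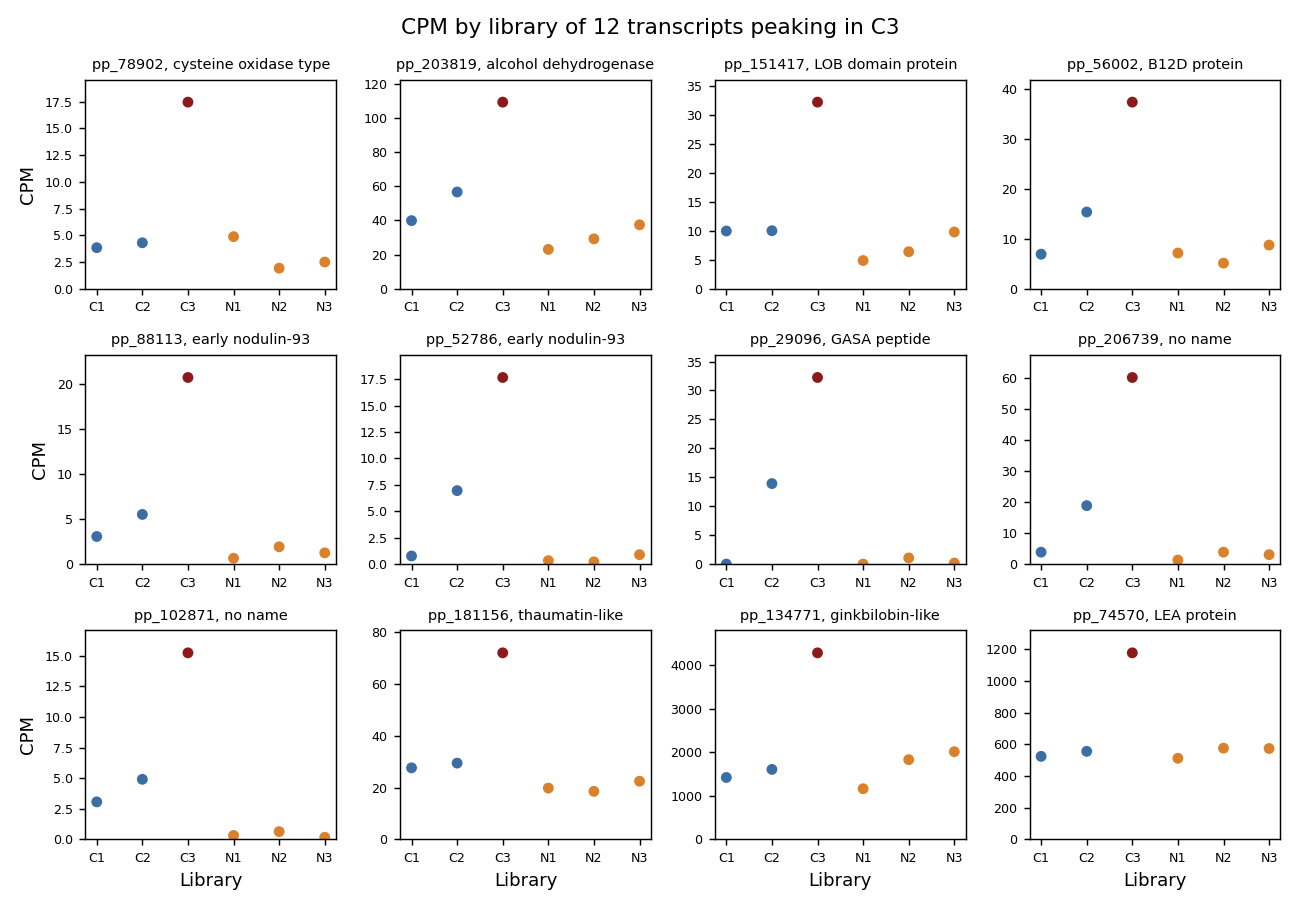
CPM (vertical axis, starting at 0, on its own scale in each panel) by library (horizontal axis) of 12 of the 100 transcripts, with C1 and C2 in blue, C3 in dark red and N1 to N3 in orange. C3 is the highest point in each panel by the way the transcripts were chosen. C2 is the next highest for pp_52786, pp_29096 and pp_206739, whereas the other 5 libraries lie close together for pp_74570.

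Small secreted and defense-type proteins formed another named group. The most abundant of the 100 was pp_134771, similar to ginkbilobin, an antifungal protein known from ginkgo seeds. It had 1424, 1609.5 and 4288 CPM in C1 to C3 and 1165, 1833 and 2017 CPM in N1 to N3, so that the ammonium values spanned both other water values. The thaumatin-like pp_181156, of a family of pathogenesis-related proteins, had water levels of 27.6, 29.5 and 72.0 CPM (C1 to C3) and ammonium levels of 19.8, 18.6 and 22.5 CPM (N1 to N3). Its ammonium values all lay below the water values.

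GASA peptides, small cysteine-rich proteins that respond to gibberellin, gave 4 transcripts. Transcript pp_29096 had 0 reads in C1 and N1, but 13.9 and 32.2 CPM in C2 and C3, and 1.07 and 0.178 CPM in N2 and N3. With 0 reads, a level of up to 2.30 CPM in C1 and 0.974 CPM in N1 is allowed, for counting error only. The water libraries therefore disagreed widely on this transcript, C1 lying with the ammonium libraries. The Gasa5-like forms pp_83983, pp_83984 and pp_83985 were far more even, with 15.5 to 15.7 CPM in C3 and 3.84 to 7.16 CPM in the other libraries.

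A glycine-rich protein was present as pp_39162 and pp_39161. The first had 38.6 CPM in C3, 6.90 and 14.3 CPM in C1 and C2, and 0, 7.68 and 5.17 CPM in N1 to N3, and the second 35.8 CPM in C3 and again 0 reads in N1. Transcript pp_219442, annotated as MLP1 of Chinese pine, had 25.6 CPM in C3 and 8.32 to 12.3 CPM elsewhere, and its sister form pp_219444 fell just outside the 100 with a ratio of 1.85.

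Late embryogenesis abundant (LEA) proteins, which protect cells against water loss, gave 2 annotated transcripts. The first, pp_74570, had 525, 556 and 1179 CPM in C1 to C3 and 513, 577 and 574 CPM in N1 to N3. Apart from C3, the libraries were almost level, with the unnamed neighbour pp_74569 following the same values. The second, pp_74573, had water levels of 158, 191 and 364 CPM (C1 to C3) and ammonium levels of 171, 146 and 145 CPM (N1 to N3). Its 2 annotated sister forms outside the 100 had ratios of 1.59.

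The remaining named transcripts had low levels. The co-chaperone match pp_56627 (AT4G13830, DNAJ-like 20) had rank 6, with 11.3 CPM in C3 and 0.649 to 2.45 CPM elsewhere. A serine-rich protein, pp_180410 (AT5G55980), had 0 reads in C1, 5.93 and 21.0 CPM in C2 and C3, and 0.649, 1.92 and 1.60 CPM in N1 to N3. Phosphoenolpyruvate carboxykinase, which feeds gluconeogenesis, was present as pp_73211, with 6.14, 3.48 and 18.3 CPM in C1 to C3 and 3.90, 4.05 and 3.03 CPM in N1 to N3, and as pp_73208, with 21.4 CPM in C3. For both, C1 was the highest of the other 5.

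RING/U-box proteins of the ubiquitin system, matching AT1G76410, gave 3 forms, the highest-ranked of which, pp_174036, had 20.3 CPM in C3 and 3.25 to 9.21 CPM elsewhere. Their 2 sister forms outside the 100 had ratios of 1.39 and 1.85. The alpha/beta-hydrolases pp_87194, pp_87195 and pp_87196, the last annotated as a strigolactone esterase of the DAD2 type, had 15.5 to 18.8 CPM in C3 and 1.95 to 6.96 CPM elsewhere. The HXXXD acyltransferase pp_210148 (AT5G01210) had 36.9 CPM in C3 and 9.42 to 17.2 CPM elsewhere. Erythronate-4-phosphate dehydrogenase (AT1G19400) was given for 2 forms, with pp_194137 at 15.7 CPM in C3 and 0.974 to 6.14 CPM elsewhere and pp_194139 at 10.4 CPM in C3.

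Unnamed transcripts took 8 of the first 10 ranks. The first, pp_185396, had 13.9 CPM in C3, 1.53 and 2.45 CPM in C1 and C2, and 0, 1.28 and 1.07 CPM in N1 to N3, and pp_185398 of the same unigene followed it closely. In C1, the level of both rested on 2 reads. The pair pp_148764 and pp_148763, ranked 4 and 5, had 16.8 and 14.4 CPM in C3 and at most 3.89 CPM elsewhere. Transcript pp_239972, at rank 7, had water levels of 9.97, 16.8 and 57.9 CPM (C1 to C3) and ammonium levels of 5.20, 11.9 and 13.7 CPM (N1 to N3). N2 and N3 stood above C1 there, whereas in the neighbouring forms pp_239973 and pp_239975 the ammonium values (4.87 to 7.13 CPM) lay below C1 and C2 (9.61 to 15.3 CPM).

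The run of 5 from pp_223194 to pp_223206 was annotated as unknown. Its highest-ranked form, pp_223206, which shares a unigene with pp_118996 of another run, had 16.1, 14.7 and 59.8 CPM in C1 to C3 and 4.22, 9.38 and 11.2 CPM in N1 to N3. All ammonium values lay below both water values, as they did for pp_223194 (3.25 to 12.8 against 15.3 and 16.9 CPM). The form pp_118996, with 37.8 CPM in C3, had 2.60 to 9.98 CPM under ammonium and 9.97 and 10.8 CPM in the other water libraries. The other run of 5, pp_164706 to pp_164711, was more even, with 12.1 to 26.3 CPM in C3 and 2.60 to 11.1 CPM elsewhere.

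Further unnamed transcripts were picked for their levels after these had been seen. In pp_206739 the values were 3.84, 18.8 and 60.1 CPM in C1 to C3 and 1.30, 3.84 and 3.03 CPM in N1 to N3, and its unigene partner pp_206740 followed the same course. The transcript pp_102871 had 15.2 CPM in C3, 3.07 and 4.91 CPM in C1 and C2, and 0.325, 0.640 and 0.178 CPM in N1 to N3. Its ammonium levels rested on 1 to 3 reads. The opposite pattern, with ammonium not below water, was found in pp_67421, which had 22.2, 22.3 and 86.1 CPM in C1 to C3 and 26.0, 24.1 and 32.6 CPM in N1 to N3. Over all 62 unnamed transcripts, levels in C3 ran from 10.6 to 1175 CPM with a median of 27.2 CPM, against a median of 20.2 CPM for the named ones.

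Among the other 5 libraries the 100 transcripts varied in opposite ways. In 16, of which 12 carry no informative name, the highest of the 5 was at most 1.5 times the lowest, as in the LEA forms, pp_203827 and pp_184182 (7.79 to 10.4 CPM, with 33.6 in C3), a share that was 32.7% over all transcripts of the table. In 27 the highest was at least 4 times the lowest, with 0 reads set to the level of 3 reads, as in both early nodulin-93 transcripts, pp_29096 and pp_206739, against 6.51% over all transcripts. Low counts spread more widely, and the part of depth in this difference was not tested.

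The order of the other 5 libraries was not used by the ranking, which treats them alike. C2 was the highest of the 5 for 50 of the 100 transcripts, C1 for 23, N3 for 18, N2 for 5 and N1 for 4, whereas over all transcripts C2 was the highest for 15.8%, C1 for 27.9%, N3 for 15.2%, N2 for 18.2% and N1 for 22.9%. N1 was the lowest for 65 of the 100, against 22.8% over all transcripts. C2 exceeded every ammonium library for 58 of the 100 (24.3% over all), and C1 did so for 39 (32.0% over all). The transcripts that peaked in C3 were thus most often next highest in C2 and lowest in N1. N1 held fewer reads than N2 and N3, while C1, the shallowest library, was the lowest for 9 of the 100 (29.3% over all). The part of depth in this order was not tested.

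A comparison that the choice of transcripts did not use was ammonium (N1, N2 and N3) against the water libraries C1 and C2. Any transcript with a ratio as high as those kept also met the 1.5-fold condition, so that condition did not treat C1 and C2 apart from N1 to N3. The test was limma, which fits a linear model to log2(CPM + 1) for each transcript and moderates its error over the table, with p-values adjusted by the Benjamini-Hochberg method over all 46658 transcripts and a threshold of 0.05. None of the 100 passed, lower or higher (0.0321% and 0.0236% of all transcripts did). At an unadjusted p under 0.05, 21 of the 100 were lower under ammonium (4.18% of all transcripts) and 0 were higher (4.79%). Applied to the recovered reads, the quasi-likelihood test of edgeR called 4 of the 100 lower (pp_102871, pp_29096, pp_206739 and pp_206740). DESeq2 called 0 but gave 92 of the 100 no adjusted p. Over all transcripts, each of these tests called 0.0879% lower.

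The levels themselves leaned to one side. All 3 ammonium values lay below both water values for 24 of the 100 (12.5% of all transcripts) and above them for 2 (12.8%). The median log2 difference, ammonium minus water, was -0.37 over the 100 and 0.01 over all transcripts, and it was negative for 87 of the 100 against 49.2% of all transcripts. With 1 transcript per run of identifiers, a setting added after the results were seen, it was negative for 45 of 50 with a median of -0.39. The median shrank to -0.18 over the 29 transcripts that reached 10 CPM in 3 or more of the 5 libraries, of which 7 had all ammonium values lower.

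**Figure D4:**
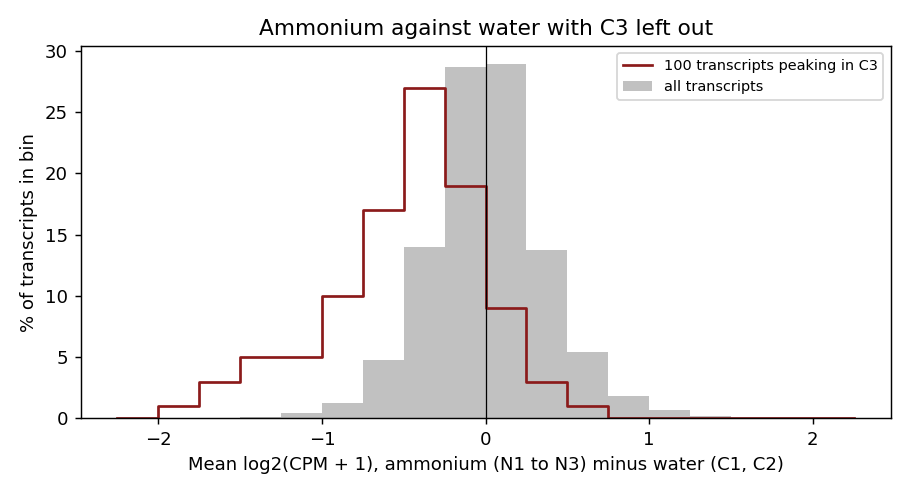
Share of transcripts (vertical axis, %) by the difference in mean log2(CPM + 1) between N1 to N3 and C1 with C2 (horizontal axis, bins of 0.25, C3 left out), for the 100 transcripts (red line) and all 46658 (grey bars). The 100 lie to the left, with a median of -0.37 against 0.01, and none of them passed limma at an adjusted p of 0.05.

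The individual differences had wide errors. For pp_102871 the log2 difference was -1.84 ± 0.42 (SE), with an adjusted p of 0.192 in limma, the smallest of the 100. Alcohol dehydrogenase pp_203819 differed by -0.68 ± 0.20 (limma adjusted p = 0.333) and early nodulin-93 pp_88113 by -1.22 ± 0.39 (limma adjusted p = 0.375). For pp_206739 the difference was -1.46 ± 0.48 (limma adjusted p = 0.393), for pp_181156 it was -0.48 ± 0.16 (limma adjusted p = 0.420), and for pp_29096 it was -1.52 ± 0.81 (limma adjusted p = 0.599). The difference of the ginkbilobin-like pp_134771 was 0.10 ± 0.17 (limma adjusted p = 0.877) and that of the LEA transcript pp_74570 was 0.04 ± 0.09 (limma adjusted p = 0.930), both within 1 SE of no difference.

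Single libraries decided some of these values. Without C2, where C1 stood alone for water, 9 of the 100 rather than 21 were lower at an unadjusted p under 0.05 in limma and 2 were higher, while over all transcripts the share lower was 7.46% rather than 4.18%. The difference of pp_29096 turned to 0.43. Without N1, pp_134771 became the only one of the 100 to pass, at 0.34 higher under ammonium (limma adjusted p = 0.0469). With C1 and N1, the 2 shallowest libraries, both left out, 18 of the 100 and 525 of all transcripts were called lower, in a fit that retained 1 residual degree of freedom and in which C2 stood alone for water.

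The low-oxygen list of Arabidopsis genes, to which 58 annotated transcripts of the table matched, gives the setting of the 10 found among the 100. Of the 58, 40 were highest in C3, against 22.3% of the 3727 annotated transcripts. The annotation used covers in large part transcripts with small p-values in the study's own comparison, which included C3, so these shares are not independent evidence. Forms of pyruvate decarboxylase, which precedes alcohol dehydrogenase in fermentation, had ratios of 0.572 to 3.14 over 10 forms. Of these, pp_123611, pp_78343 and pp_163572 were left out beforehand and would have ranked 11, 24 and 40. The alcohol dehydrogenase form pp_203818, also left out beforehand, would have ranked 72. Ratios of group VII ERFs were 1.17 to 1.64 over 8 forms, all highest in C3. The pyruvate decarboxylase form pp_123603, with a ratio of 2.99, and the alcohol dehydrogenase form pp_105642, with 2.39, missed the 100 only because both had under 10 CPM in C3.

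**Figure D5:**
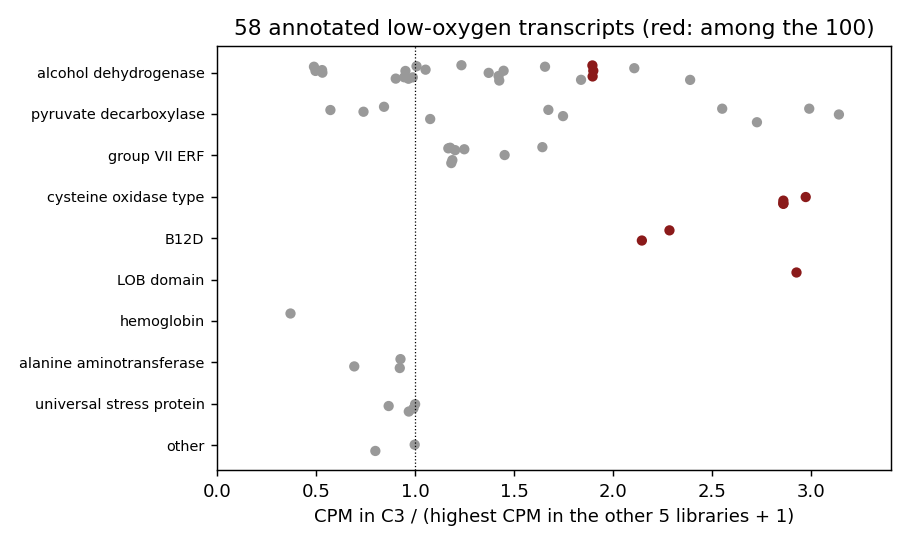
Ratio of the CPM in C3 to the highest CPM of the other 5 libraries plus 1 (horizontal axis, dotted line at 1) for the 58 annotated low-oxygen transcripts, by gene family (vertical axis), with those among the 100 in red. Forms left out beforehand are among the grey points. Alcohol dehydrogenase forms spread from 0.489 to 2.39, and the hemoglobin and alanine aminotransferase forms lie below 1.

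Other parts of the list did not peak in C3. Hemoglobin 1, pp_135403, which scavenges nitric oxide in roots short of oxygen, had water levels of 0.767, 2.66 and 3.09 CPM (C1 to C3) and ammonium levels of 7.47, 2.56 and 6.24 CPM (N1 to N3). Alanine aminotransferase, which stores nitrogen and carbon as alanine under low oxygen, had 3 forms with ratios of 0.692 to 0.925, and in all 3 the ammonium values lay above those of C1 and C2. Even alcohol dehydrogenase divided. The forms pp_247833, pp_247834 and pp_247837 had 58.3 to 72.9 CPM in C3, close to 60.6 to 74.5 CPM in C1 and C2, and 22.2 to 36.0 CPM under ammonium. Leaving out C3, these 3 fell under ammonium by 1.16 to 1.18 on the log2 scale (limma adjusted p = 0.0225 to 0.0227), the only transcripts of the list to pass in either direction. In limma without a trend, with same-numbered libraries as blocks, or with a trend but without N3, 0 transcripts of the whole table passed. These calls were therefore lost there. Without C3, 15 of the 58 were lower and 5 higher at an unadjusted p under 0.05, which is 25.9% and 8.62% of them, against 23.3% lower and 22.6% higher over the annotated transcripts, and their median log2 difference was -0.41.

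Among all 3727 annotated transcripts, 76 belonged to the 100, and the other lists differed in how many they had. The heat shock and chaperone list had 1 of its 100 annotated transcripts among the 100 described, and glycolysis and gluconeogenesis 2 of 95. The ubiquitin system had 3 of 115, ethylene and AP2/ERF 1 of 11 and defense proteins 2 of 74. Serine-rich proteins had 1 of 19, LEA proteins and dehydrins 2 of 11, and GASA peptides 4 of 7, of which 3 were forms of the same unigene. Calcium-binding proteins (46 transcripts), cell wall proteins (69), peroxidases and laccases (61) and cytochromes P450 (32) had 0. In the fit without C3, limma called 15 of the annotated transcripts lower and 10 higher. Among them were 6 calcium-binding transcripts lower, 1 chaperone lower, 1 cell wall transcript lower and 1 defense transcript higher, and none of the other lists named in this paragraph had a call. Of 11 LEA and dehydrin transcripts 7 were highest in C3 (22.3% of the annotated transcripts). All ammonium values lay below C1 and C2 in 7 of the 11 (29.2% of the annotated transcripts, 12.5% of all). Neither pp_74570 nor pp_74573 was among these 7. Such values were found in 7 of 11 ethylene and AP2/ERF, 14 of 19 serine-rich, 28 of 46 calcium-binding and 53 of 100 heat shock and chaperone transcripts. They were found in 36 of 69 cell wall, 18 of 32 cytochrome P450 and 42 of 115 ubiquitin transcripts. Glycolysis had 20 of 95, peroxidases and laccases 13 of 61, defense proteins 17 of 74 and GASA peptides 0 of 7. All ammonium values lay above C1 and C2 in 30 defense, 32 ubiquitin, 23 cell wall, 21 peroxidase and laccase and 14 glycolysis transcripts. The same held for 10 heat shock, 8 cytochrome P450 and 5 calcium-binding transcripts, against 1051 of all 3727 annotated. It held for 0 in the other lists named here.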

How the data were processed

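The authors deposited CPM values for 46658 transcripts in 6 libraries. Per the submitters' processing notes and the study's methods, reads were base-called, filtered by quality, aligned with minimap2 to a root transcriptome and turned into CPM with edgeR, and transcripts that reached 2 CPM in 2 or more libraries were retained. Their versions were not given in the sources used here. Divided by the CPM of a single read, 100% of the values of every library came out whole within 1e-06, so reads were recovered.

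The members and lists were chosen with earlier results of these data known. Lists were set by Arabidopsis locus or by words of the description in 4 supplementary tables, held in part, which annotated 3727 transcripts. No table of transcript sequences was used, and none is printed. Named were the first 10 in rank, the highest-ranked form of each unigene with an informative name, members past the threshold, the 5 on each side of the end of the ranking, sister forms as ranges and some transcripts chosen after their values were seen.

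Ammonium was compared with C1 and C2 by limma 3.58.1 (eBayes with a trend, R 4.3.3) on log2(CPM + 1), where a fold change understates that of low transcripts. Alternatives were pseudocounts of 0.25 and 4 CPM, a minimum of 10 CPM in 3 of the 5 libraries, TMM and quantile scaling, no trend, edgeR 4.0.16 and DESeq2 1.42.0 on recovered reads, a replicate block, each library left out, and C1 with N1 left out. The limma script was tested on 46658 simulated transcripts for this comparison. It recovered 65% of 100 with a log2 change of 1 and 99% of 100 with a log2 change of 2. There were 4 false calls. The changed transcripts were picked only among transcripts averaging 10 CPM or higher, with a fixed spread between libraries. Of the 100 described here, 29 reached 10 CPM in 3 or more of the 5 libraries. The recovery rates therefore do not give the chance of a call for the 100 described.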

Additional observations from a re-analysis of the deposited data

How the results depend on the processing

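Of the 100, at least 75 stayed among the first 100 under every other form of the rule tried except a minimum of 20 CPM in C3, which retained 59. Without 1 of the other 5 libraries, 75 to 99 were retained. The median log2 difference without C3 stayed negative under all 16 alternatives, between -0.49 and -0.18, and moved by more than the spread between libraries only with the minimum of 10 CPM in 3 of the 5 libraries (-0.18, over 29 transcripts).

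Counts moved more. Called lower were 0 of the 100 in limma, 4 with edgeR and 18 without C1 and N1. Called higher was 1 without N1. At an unadjusted p under 0.05, the number lower was 21, but 4 of 29 with the CPM minimum, 13 without a trend, 10 with DESeq2, 12 of 50 with 1 transcript per run, 34 without C1 and N1, and 9 to 28 with single libraries left out. The number higher was 0 (4.79%), but 2 without N1 (5.51%). Fits with 1 water library are left out of these p-value counts. Groups did not overlap, ammonium lower, for 24 transcripts (12.5% of all). The number was 7 of 29 with the CPM minimum (13.9%) and 15 of 50 with 1 per run (12.5%). It was 65 without C1 and N1 (35.2% of all transcripts), and 32 to 58 with single libraries left out (17.5% to 32.0% of all). The 39 without C2 stood against 32.0%. Groups did not overlap, ammonium higher, for 2 (12.8% of all), but for 1 of 50 with 1 per run (12.8%). The number was 15 without C1 and N1 (36.1% of all), and 2 to 11 with single libraries left out (17.8% to 33.2%). Fewer libraries leave fewer values to overlap; otherwise the cause was not tested.

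Deviations of same-numbered libraries from their group means were correlated at 0.00, 0.06 and -0.01. These correlations cannot tell whether same-numbered libraries came from the same repeat, so the pairing remained unknown. With the replicate block, 33 transcripts were lower at an unadjusted p under 0.05, the median was -0.49, 0 were called, and N3, alone in its block, no longer contributed. The log2 difference of pp_134771 turned to -0.051 with the block and ranged from -0.051 to 0.34 with single libraries left out, that of pp_74570 from -0.0069 to 0.091, and that of pp_29096 from -3.47 to 0.43.

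Depth limits C1 and N1, where 2 and 7 of the 100 had 0 reads.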
